A study of Mus musculus with 10 samples.

Results

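The core cardiac transcription factors are the DNA-binding proteins that set up and maintain the gene program of heart muscle. The 10 described here (Gata4, Gata6, Nkx2-5, Tbx5, Tbx20, Hand1, Hand2, Srf, Irx4 and Prox1) were matched by gene symbol among the 45706 genes of the deposited table, and all 10 were found. RNA was sequenced from left ventricular tissue of mouse hearts in 2 groups of 5 libraries, TAC with osimertinib and TAC with placebo. TAC, transverse aortic constriction, narrows the aorta and loads the left ventricle with pressure, and both groups carried it. Osimertinib is a tyrosine kinase inhibitor of the epidermal growth factor receptor, used against lung cancer, and the labels give the treatment of the placebo hearts as vehicle. The study addressed the cardiac toxicity of osimertinib. The labels name no strain, genotype, sex, age, dose or length of treatment. Nor do they say whether each library stands for a separate animal, so the tests below speak at most of the spread between libraries, which may be technical.

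These factors work together. Gata4 and Gata6 are zinc finger proteins, Nkx2-5 a homeodomain protein and Tbx5 and Tbx20 T-box proteins, and in the developing heart they bind one another and share target genes such as the natriuretic peptide gene Nppa. Hand1 and Hand2 are basic helix-loop-helix proteins of the ventricular chambers, Srf binds the CArG boxes of muscle and growth-response genes, Irx4 is a ventricular homeobox factor, and Prox1 is a homeobox factor known both from heart muscle and from lymphatic vessels. Pressure load is known to engage Gata4 and Srf in cardiac hypertrophy.

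Upstream sequence of the members was read from RefSeq (GRCm38.p6) to show which of the family's own binding motifs lie there. A window of 250 bases before the annotated start was found for 6 of the 10 members in 7 entries, 2 of them for Prox1. The 3 windows below differ in the motifs they hold: Srf, with the motif that Srf itself binds, Hand2, with GATA motifs, and Tbx20, with none of the motifs searched. Motifs were not tested against the changes in osimertinib. They are printed 5′ to 3′ on the strand of the gene, with each motif match in capitals. The Srf window is chr17:46556176-46556412 (minus strand, with 13 annotated UTR bases next to the start left out), that of Hand2 is chr8:57320733-57320982 (plus strand) and that of Tbx20 is chr9:24774304-24774553 (minus strand).
Srf: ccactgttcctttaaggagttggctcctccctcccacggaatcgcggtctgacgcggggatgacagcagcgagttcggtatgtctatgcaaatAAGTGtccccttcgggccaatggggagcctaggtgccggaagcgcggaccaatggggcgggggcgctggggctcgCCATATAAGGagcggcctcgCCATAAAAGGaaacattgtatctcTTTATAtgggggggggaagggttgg
Hand2: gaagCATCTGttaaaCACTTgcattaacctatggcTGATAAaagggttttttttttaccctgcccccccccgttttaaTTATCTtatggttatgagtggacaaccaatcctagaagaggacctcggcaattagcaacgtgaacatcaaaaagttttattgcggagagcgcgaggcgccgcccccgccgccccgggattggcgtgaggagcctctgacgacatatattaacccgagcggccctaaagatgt
Tbx20: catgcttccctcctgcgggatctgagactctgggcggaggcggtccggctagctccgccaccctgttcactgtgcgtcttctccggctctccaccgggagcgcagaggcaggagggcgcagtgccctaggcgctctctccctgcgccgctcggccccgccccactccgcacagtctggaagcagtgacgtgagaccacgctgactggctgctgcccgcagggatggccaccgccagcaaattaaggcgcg

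The Srf window held 2 CArG boxes, at -82 to -73 and -62 to -53 from the RefSeq start, a TATAAA box read on the opposite strand at -38 to -33 and the Nkx2-5 core motif AAGTG at -157 to -153. A CArG box was found in 1.47% of the 32851 promoter windows of the same length, and among the members in the Srf window. The Hand2 window held the GATA motifs TGATAA at -215 to -210 and AGATAA, on the opposite strand, at -172 to -167, beside AAGTG and the Hand motif CATCTG. The GATA motif AGATAA was found in 9.99% of all windows, TGATAA in 7.94%, AGATAG in 7.71% and TGATAG in 6.35%, and at least 1 of the 4 in 26.5%. AAGTG was found in 40.7% of windows, CATCTG in 14.4% and TATAAA in 12.4%. The T-box motif GGTGTGA, in 3.33% of windows, and the shorter AGGTGT, in 11.8%, matched in no member window. Each motif was searched on both strands, and no overlap between different motifs occurred in the 3 windows printed. Both Prox1 windows, not printed, held AAGTG, and that at chr1:190170828-190171077 also held CATCTG and TATAAA. The windows of Tbx20, Irx4 and Nkx2-5 held no match, which says only that these letters are not in the window.

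The libraries held between 15863265 and 21309296 reads, as recovered from the spacing of the values. The deposited unit is CPM, reads scaled to a library total of 1000000. It carries no further scaling between libraries, and mitochondrially encoded genes took 31.7% to 45.2% of the reads in osimertinib and 38.1% to 63.4% in placebo. Placebo library 5 stood at the top of that range, which leaves a smaller share of its reads to all other genes together. All values are therefore given both as deposited and as rescaled CPM, where each library is divided by the median, over tested genes, of its ratio to the geometric mean of the 10. That divisor was 0.4545 for placebo library 5 and 0.926 to 1.34 for the other 9. The part of the mitochondrial share in it was not tested. Osimertinib library 4 also stood apart, with atrial markers summing to 4715 rescaled CPM against 517 to 2285 in the other 9, although all libraries are labelled left ventricle. Of 8 atrial markers, 6 passed the filter on low values, among them Nppa, itself a target of these factors, and Bmp10 was at 0 in every library. Each call of a member that rests on either library is given with and without it. Correlations are given over all 10 libraries only. The cardiomyocyte markers all passed, which checks for heart muscle but not for the chamber. Their sum lay between 30231 and 49777 rescaled CPM in osimertinib and between 15893 and 35843 in placebo.

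Several of these factors were higher in osimertinib hearts, led by Nkx2-5 and Tbx20. In the deposited CPM, 5 of the 9 members tested rose (Gata4, Nkx2-5, Tbx5, Tbx20 and Srf). After rescaling, 6 rose (Gata4, Gata6, Nkx2-5, Tbx20, Srf and Prox1). No member fell, and all 9 log2 fold changes were above 0 in both scalings. Over all genes tested 76.3% were above 0 as deposited and 51.1% after rescaling, where Irx4 stood at only 0.01 ± 0.17. The calls are limma's adjusted p under 0.05 over the 12350 genes tested, of which 6.62% were called higher and 0.13% lower in osimertinib in the deposited CPM, and 10.4% higher and 10.5% lower after rescaling. The median log2 fold change of the 9 members was 1.00 (0.72 rescaled), against 0.27 (0.01 rescaled) over all genes tested. The 2 groups did not overlap for 4 members in the deposited CPM and for 5 after rescaling, where 5.33% and 5.72% of all genes tested had every osimertinib library above every placebo library. The 9 tested members had at least 2.59 CPM in each of the 10 libraries, so the filter, at least 1 CPM in 5 libraries, did not select on a group. Hand1 did not pass it. In bulk tissue, fewer cells of a type and less RNA per cell cannot be told apart.

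**Figure D1:**
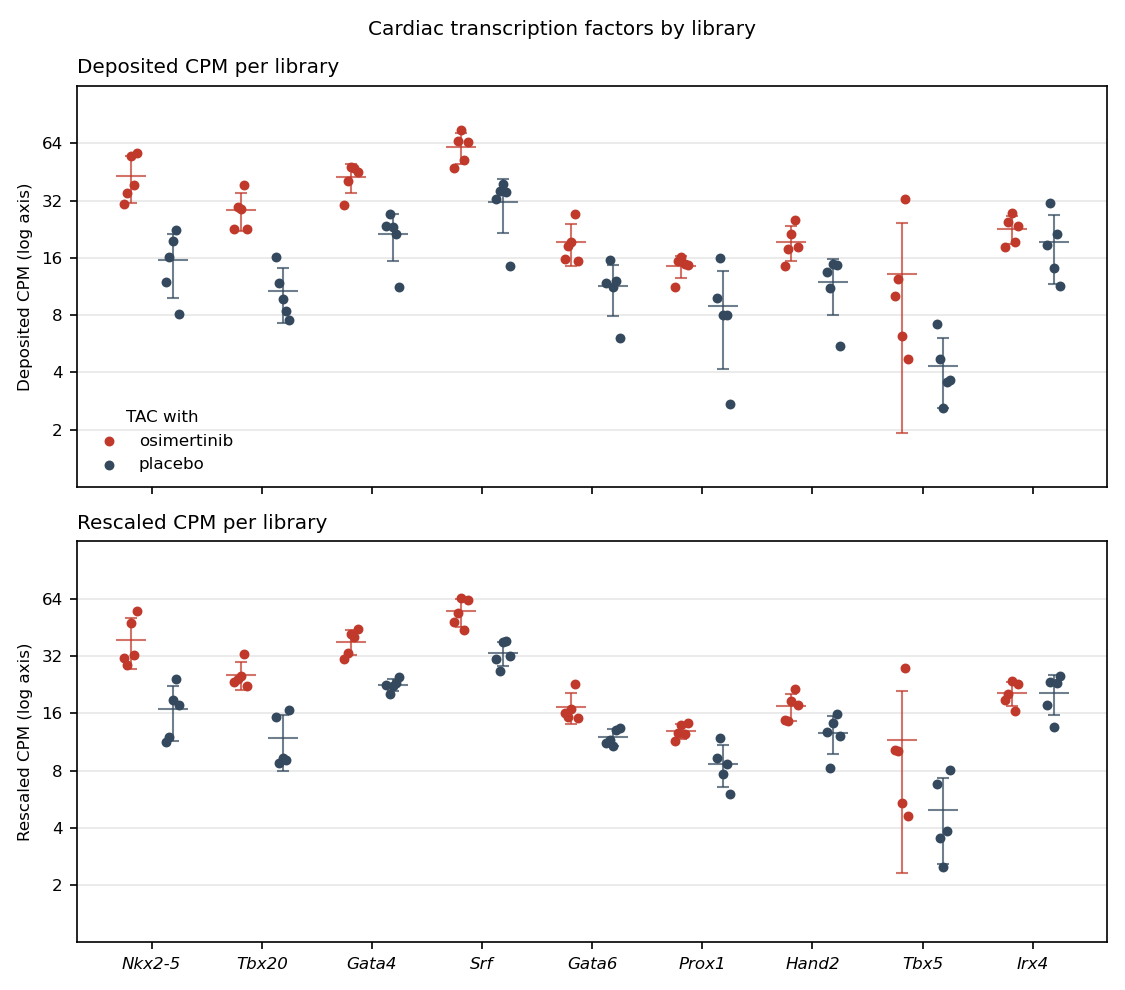
Each point is 1 library, placed by its CPM on a log axis, as deposited (top) and rescaled (bottom), with osimertinib left of placebo for each gene; horizontal bars are group means and whiskers the SD over 5 libraries. Osimertinib lies above placebo without overlap for Nkx2-5, Tbx20, Gata4 and Srf in both panels, and the single high point of Tbx5 is osimertinib library 4.

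Nkx2-5, the homeodomain factor that marks cardiac muscle from its first specification, had the largest rise of the members in both scalings. It lies on chromosome 17, 26838664 to 26845009 on the minus strand (GRCm38, protein coding). The osimertinib libraries 1 to 5 held 30.7, 35.0, 54.8, 38.4 and 56.6 CPM as deposited. The placebo libraries 1 to 5 held 12.0, 16.1, 19.6, 22.4 and 8.07 CPM. The lowest osimertinib library stood above the highest placebo library, and osimertinib libraries 3 and 5 were the highest. After rescaling, the osimertinib values were 31.3, 28.6, 47.4, 32.4 and 55.2. The rescaled placebo values were 11.4, 12.0, 18.8, 24.3 and 17.8, so the placebo library that was lowest as deposited, library 5, moved into the middle of its group and the groups still did not overlap. Nkx2-5 thus had a log2 fold change of 1.48 ± 0.32 (SE, limma adjusted p = 0.00378) as deposited and 1.20 ± 0.23 (adjusted p = 0.0132) rescaled. It passed in every fit that left out 1 library, in both scalings.

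Tbx20, a T-box factor needed by adult mouse heart muscle to keep its contractile and ion handling genes, came next among the calls of both scalings. The gene lies on chromosome 9, 24718138 to 24774303 on the minus strand. Its deposited values were 22.8, 29.5, 29.0, 38.6 and 22.7 CPM in osimertinib libraries 1 to 5. They were 16.2, 11.8, 9.73, 8.37 and 7.56 CPM in placebo libraries 1 to 5. No osimertinib library fell within the placebo range, and osimertinib library 4 was the highest. Rescaled, osimertinib stood at 23.2, 24.2, 25.1, 32.6 and 22.2. Placebo stood at 15.4, 8.77, 9.33, 9.04 and 16.6 rescaled CPM, with libraries 1 and 5 well above the other 3. On the log2 scale Tbx20 changed by 1.39 ± 0.31 (limma adjusted p = 0.00410) as deposited and 1.11 ± 0.19 (adjusted p = 0.0104) rescaled. Without osimertinib library 4 it was 1.02 ± 0.19 rescaled (adjusted p = 0.0154), and it passed in every fit without 1 library.

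Tbx5, the T-box factor of human Holt-Oram syndrome and in mouse a factor of the atria, the left ventricle and the conduction system, differed most between libraries of one group. The gene spans chromosome 5, 119832668 to 119885219 on the plus strand. As deposited, the osimertinib libraries 1 to 5 had 10.0, 12.4, 6.25, 32.7 and 4.71 CPM. The placebo libraries had 7.16, 4.73, 2.59, 3.58 and 3.66 CPM. Osimertinib library 4 held more than any other library, and osimertinib libraries 3 and 5 lay within the placebo range. After rescaling the osimertinib values were 10.3, 10.2, 5.42, 27.6 and 4.59. The placebo values were 6.78, 3.52, 2.48, 3.87 and 8.05, so the overlap of the groups remained. Its log2 fold change was 1.25 ± 0.33 (limma adjusted p = 0.0130) as deposited and 0.98 ± 0.42 (adjusted p = 0.110) rescaled, where it did not pass. The deposited error of 0.33 rests mostly on a variance shared over genes, not on the spread of Tbx5 itself. Without the filter on low values, where less was shared, the deposited error was 0.45 and the limma adjusted p was 0.226. Without osimertinib library 4 the deposited value was 0.85 ± 0.34 (adjusted p = 0.121) and the rescaled one 0.60 ± 0.33 (adjusted p = 0.199). Without placebo library 5 the deposited value was 1.21 ± 0.41 (adjusted p = 0.0698), so the deposited call rested on both libraries. The call was lost in 9 of 25 alternatives in all, among them CPM recalculated without mitochondrial and haemoglobin genes. The log2 ratio of Tbx20 to Tbx5 within a library averaged 1.38 ± 0.798 in osimertinib and 1.23 ± 0.294 in placebo (SD, n = 5 each). An exact permutation test of the difference of 0.14 gave a two-sided p of 0.675, the same after adjustment over 3 ratios, and it did not pass.

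Gata4, the zinc finger factor most closely tied to the hypertrophic response of heart muscle, had the smallest standard error of the members after rescaling. The gene lies on chromosome 14, 63198922 to 63271692 on the minus strand. Its deposited values were 30.4, 40.7, 48.0, 47.5 and 45.3 CPM in osimertinib libraries 1 to 5 and 23.6, 27.0, 23.3, 21.4 and 11.2 CPM in placebo libraries 1 to 5. Placebo library 5 stood far below the other placebo libraries. The rescaled osimertinib values were 31.0, 33.3, 41.6, 40.0 and 44.1. The rescaled placebo values were 22.4, 20.1, 22.4, 23.1 and 24.7, a narrow group that included library 5. The groups did not overlap in either scaling. Gata4 changed by 0.73 ± 0.12 on the log2 scale when rescaled (limma adjusted p = 0.00867, rank 40 of 12350 genes by p) and 1.01 ± 0.31 as deposited (adjusted p = 0.0358). The rescaled call held in every fit without 1 library, whereas the deposited call was lost in 6 of the 10, without osimertinib library 2, 3, 4 or 5 or placebo library 1 or 4, at adjusted p of up to 0.134.

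Gata6, the second cardiac GATA factor, which overlaps with Gata4 in function, showed a smaller difference. The gene is on chromosome 18. It averaged 17.2 ± 3.25 rescaled CPM in osimertinib and 12.0 ± 1.19 in placebo (SD, n = 5 each), with ranges of 15.1 to 22.9 and 10.7 to 13.4 that did not overlap. As deposited the means were 19.3 ± 4.72 CPM in osimertinib and 11.4 ± 3.40 CPM in placebo, and the ranges overlapped narrowly. Its log2 fold change passed when rescaled, at 0.49 ± 0.13 (limma adjusted p = 0.0252), and did not pass as deposited, at 0.77 ± 0.31 (adjusted p = 0.118). Its highest library was osimertinib library 4, without which the rescaled value was 0.39 ± 0.11 (adjusted p = 0.0321). The rescaled call was lost without osimertinib library 3 (adjusted p = 0.0641), placebo library 1 (0.0618) or placebo library 2 (0.0605). The log2 ratio of Gata4 to Gata6 was 1.13 ± 0.287 in osimertinib and 0.879 ± 0.112 in placebo, a difference of 0.25. It did not pass, with a two-sided p of 0.111 from the exact permutation test, where 0.00794 is the smallest possible, and 0.167 after adjustment over the 3 ratios.

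Srf, the serum response factor, which drives sarcomeric actin and immediate early genes, rose in both scalings. It lies on chromosome 17, 46548329 to 46556175 on the minus strand, with the CArG boxes printed above upstream of its start. The osimertinib libraries 1 to 5 held 47.2, 66.1, 74.9, 52.0 and 64.8 CPM as deposited. In placebo libraries 1 to 5 it held 32.7, 35.9, 39.3, 35.4 and 14.5 CPM. Placebo library 5 was far below the other placebo libraries, which lay close together. Rescaling put the osimertinib libraries at 48.2, 54.1, 64.9, 43.8 and 63.2. It put the placebo libraries at 30.9, 26.7, 37.7, 38.3 and 31.9, so that library 5 lay inside its group and the groups did not overlap. Srf changed by 0.72 ± 0.14 on the log2 scale when rescaled (limma adjusted p = 0.0137) and 1.00 ± 0.32 as deposited (adjusted p = 0.0425). The rescaled call held without any 1 library, whereas the deposited call was lost in the same 6 fits as that of Gata4, at adjusted p of up to 0.168.

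Hand2, a helix-loop-helix factor of the ventricles and of cardiac fibroblast and neural crest lineages, did not pass in either scaling. The gene lies on chromosome 8, 57320983 to 57324633 on the plus strand. It averaged 17.4 ± 2.83 rescaled CPM in osimertinib and 12.6 ± 2.83 in placebo, and the ranges of 14.5 to 21.3 and 8.25 to 15.8 overlapped. Its log2 fold change was 0.46 ± 0.17 rescaled (limma adjusted p = 0.0651) and 0.74 ± 0.31 as deposited (adjusted p = 0.137). Hand1, its paralogue of the developing left ventricle, was at the floor of detection. It had 1, 0, 1, 2 and 0 reads in osimertinib libraries 1 to 5 and 1, 0, 0, 0 and 0 reads in placebo libraries 1 to 5. A count of 0 allows up to 3 reads, or 0.141 to 0.189 CPM across the libraries, and against that limit Hand2 was at least 33.1-fold higher than Hand1 per length of exon in each of the 10 libraries. With Hand1 this low its ratio to Hand2 is set by the pseudocount, so the ratio's difference of -0.64 on the log2 scale says nothing of Hand1. The exact permutation test gave it a two-sided p of 0.0238, or 0.0714 adjusted over the 3 ratios.

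Irx4, the Iroquois homeobox factor of ventricular muscle, differed least. The gene is on chromosome 13, 73260479 to 73269608 on the plus strand. It averaged 20.4 ± 3.00 rescaled CPM in osimertinib and 20.5 ± 4.76 in placebo, with ranges of 16.4 to 23.7 and 13.6 to 25.0. Its log2 fold change was 0.01 ± 0.17 rescaled (limma adjusted p = 0.964) and 0.29 ± 0.31 as deposited (adjusted p = 0.643), near the all-gene median of each scaling, and the sign of the rescaled value changed with the library left out. Prox1, which in mouse heart muscle is needed for sarcomere structure and elsewhere sets lymphatic endothelial identity, lies on chromosome 1, 190118035 to 190170714 on the minus strand. It averaged 12.9 ± 1.16 rescaled CPM in osimertinib and 8.70 ± 2.17 in placebo. The ranges of 11.4 to 14.3 and 5.99 to 11.9 overlapped at placebo library 2, the highest of its group. The rescaled log2 fold change of 0.57 ± 0.15 passed (limma adjusted p = 0.0284) and the deposited one of 0.83 ± 0.32 did not (adjusted p = 0.0962). The rescaled call of Prox1 was lost without osimertinib library 3 (0.0778), osimertinib library 5 (0.0765) or placebo library 1 (0.0504). Of 7 lymphatic endothelial markers the lowest adjusted p was that of Mmrn1, at 0.109 as deposited and 0.113 rescaled. Their summed level was 87.1 to 152 rescaled CPM in osimertinib and 83.2 to 122 in placebo, and their part in the Prox1 result was not tested.

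**Figure D2:**
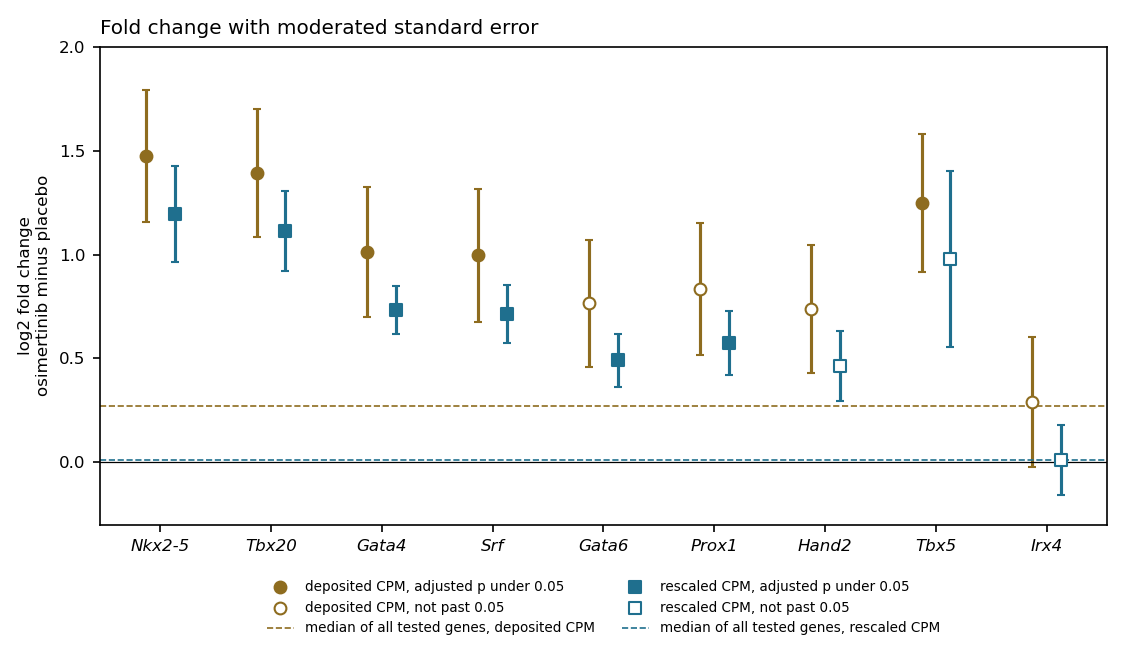
Log2 fold change, osimertinib minus placebo, with its moderated standard error for the 9 tested members, as deposited (circles) and rescaled (squares); filled symbols have an adjusted p under 0.05 and dashed lines mark the median of all tested genes, 0.27 as deposited and 0.01 rescaled. Nkx2-5 and Tbx20 stand highest among the calls of both scalings, and Irx4 lies near the all-gene medians.

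**Figure D3:**
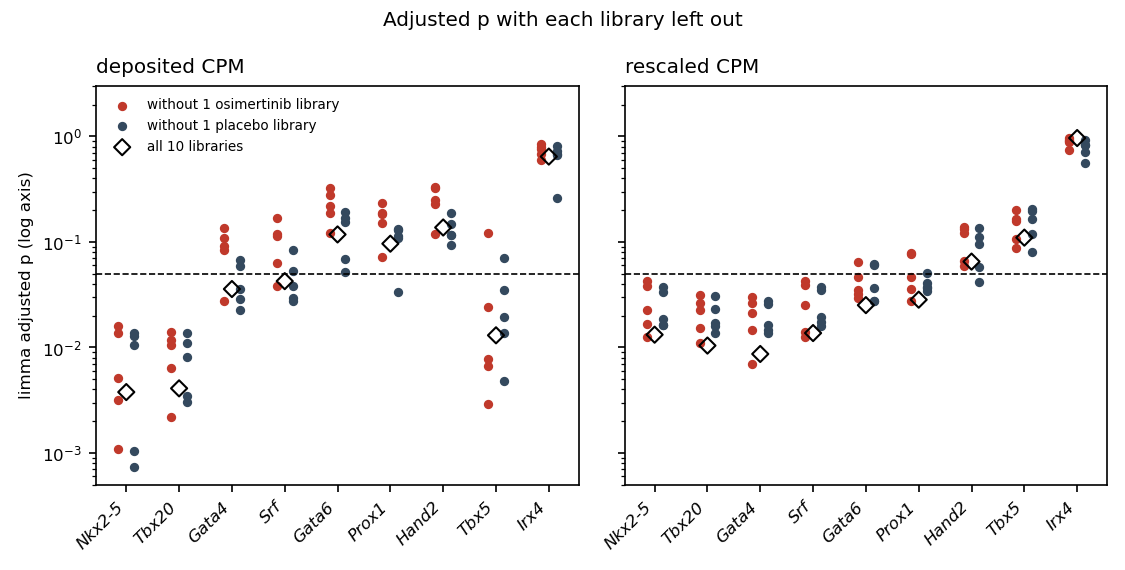
Limma adjusted p (log axis) of each tested member with all 10 libraries (diamonds) and with 1 osimertinib or 1 placebo library left out (points), as deposited (left) and rescaled (right); the dashed line is 0.05. All points of Nkx2-5 and Tbx20 lie under the line in both panels, and those of Gata4 and Srf in the rescaled panel.

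Antisense neighbours limit what the counts of 3 members can show. Hand2os1, an antisense RNA whose exons overlap Hand2, had 9.30 ± 2.34 CPM in osimertinib and 4.72 ± 2.01 CPM in placebo (SD, n = 5 each). Its log2 fold change passed in both scalings, at 0.98 ± 0.31 as deposited (limma adjusted p = 0.0392) and 0.72 ± 0.21 rescaled (adjusted p = 0.0350). Gata6os stood at 1.84 ± 0.437 CPM in osimertinib and 0.695 ± 0.253 CPM in placebo and was called at 0.97 ± 0.30 (adjusted p = 0.0360) and 0.77 ± 0.21 rescaled (adjusted p = 0.0290). It passed the filter through 5 osimertinib libraries and 1 placebo library. Prox1os, at means of 0.359 CPM in osimertinib and 0.232 CPM in placebo, was not tested. The libraries kept strand, but whether the counting used it is not given in the sources used here, so reads of Hand2, Gata6 and Prox1 and of these partners are uncertain.

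Levels of different genes compare only per length, as rescaled CPM per kb of exon. In osimertinib the order was Nkx2-5 at 22.7 ± 6.78, Srf at 18.9 ± 3.17, Gata4 at 9.74 ± 1.44, Irx4 at 7.82 ± 1.15 and Hand2 at 7.40 ± 1.20 rescaled CPM per kb (SD, n = 5). Gata6 (2.65 ± 0.4996), Tbx5 (2.48 ± 1.99), Tbx20 (2.12 ± 0.344) and Prox1 (1.54 ± 0.138) followed, and Hand1 (0.0208 ± 0.0213) was last. Placebo placed Srf at 11.4 ± 1.68, Nkx2-5 at 9.78 ± 3.10, Irx4 at 7.87 ± 1.83, Gata4 at 5.77 ± 0.422 and Hand2 at 5.37 ± 1.20. In placebo, Gata6 (1.84 ± 0.183), Tbx5 (1.06 ± 0.505), Prox1 (1.04 ± 0.259) and Tbx20 (0.986 ± 0.320) stood above Hand1. Neighbours whose ranges did not overlap were, in osimertinib, Srf over Gata4, Hand2 over Gata6, Tbx20 over Prox1 and Prox1 over Hand1, and in placebo Hand2 over Gata6 and Tbx20 over Hand1. All other neighbours overlapped, among them Nkx2-5 and Srf, which held the first and second place in both groups.

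Within a group, the members fell apart by library. Nkx2-5 and Srf were highest in osimertinib libraries 3 and 5, whereas Tbx5, Tbx20, Gata6 and Hand2 were highest in osimertinib library 4. After the group means were subtracted, the Pearson correlation over the 10 libraries was 0.82 between Nkx2-5 and Srf, 0.77 between Tbx5 and Tbx20, 0.74 between Gata6 and Tbx5 and 0.69 between Gata4 and Nkx2-5. It was -0.71 between Tbx5 and Srf and -0.52 between Nkx2-5 and Tbx5. These are descriptions of 10 libraries that share their scaling and their tissue pieces. The correlations of Tbx5 with Tbx20 and Gata6 include osimertinib library 4, the highest for all of them, and were not calculated without it.

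**Figure D4:**
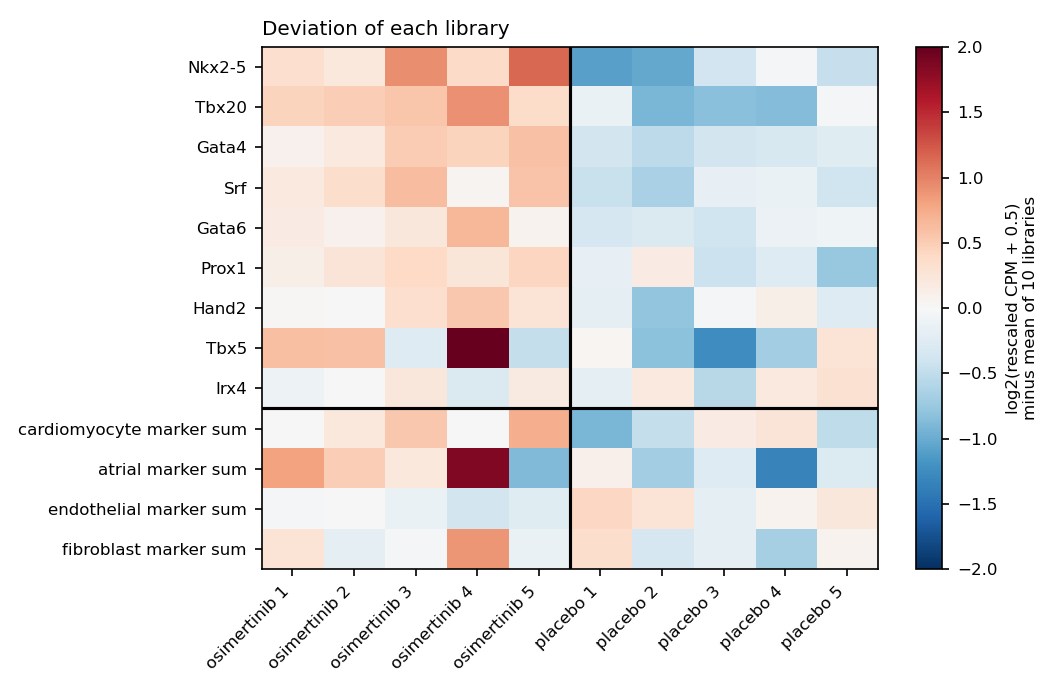
Colour gives log2(rescaled CPM + 0.5) of each tested member, and of 4 marker sums below the line, minus the mean of the 10 libraries; osimertinib libraries 1 to 5 are on the left and placebo libraries 1 to 5 on the right. Nkx2-5 and Srf are highest in osimertinib libraries 3 and 5, as is the cardiomyocyte marker sum. Tbx5, Tbx20 and Gata6 are highest in osimertinib library 4, as are the atrial and fibroblast marker sums.

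Cell type markers moved with both patterns. The 12 cardiomyocyte markers summed to 30231, 34876, 43604, 30360 and 49777 rescaled CPM in osimertinib libraries 1 to 5. In placebo libraries 1 to 5 they summed to 15893, 21548, 33614, 35843 and 21253. The sum was highest in osimertinib libraries 5 and 3, as Nkx2-5 and Srf were. So was that of 8 smooth muscle and pericyte markers, at 2526 and 2267 rescaled CPM. Of those markers Des alone averaged 1363 ± 371 CPM in osimertinib as deposited. Of the 12 cardiomyocyte markers 7 rose as deposited and 3 after rescaling, where 6.62% and 10.4% of all genes tested were called higher. The atrial markers summed to 2285, 1839, 1516, 4715 and 710 rescaled CPM in osimertinib libraries 1 to 5. They came to 1412, 806, 1097, 517 and 1085 in placebo libraries 1 to 5. Nppa, a target gene of these factors, is among the markers summed. As deposited it averaged 1458 ± 547 CPM in osimertinib and 703 ± 370 CPM in placebo (SD). Its lowest osimertinib value was 703 CPM, where the lowest atrial sum in osimertinib was 728 CPM, so a low sum can be mostly Nppa. Osimertinib library 4 stood at the top of the atrial sum, as of Tbx5. It also held the highest sums of fibroblast, endocardial, epicardial, conduction system, macrophage and neuronal markers, the epicardial sum being 43.9 rescaled CPM against 5.78 to 19.6 in the other 9. Endothelial markers moved the other way after rescaling, with sums of 1244 to 1603 rescaled CPM in osimertinib and 1421 to 2138 in placebo. Of 8, none rose and 2 fell after rescaling, where 10.5% of all genes tested were called lower. These were Tie1, an endothelial receptor kinase, at -0.38 ± 0.12 (limma adjusted p = 0.0454) and Egfl7, a secreted endothelial protein, at -0.76 ± 0.21 (adjusted p = 0.0316), and neither passed as deposited. The part of these marker changes in the members' values was not tested. With the atrial markers, Nppa among them, as a covariate, Tbx5 had a rescaled log2 fold change of 0.70 ± 0.21 and passed (limma adjusted p = 0.0205). Hand2 also passed, at 0.50 ± 0.16 (adjusted p = 0.0279), so 8 members were called. In that fit 21.5% of all genes were called higher, against 10.4% without the covariate.

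**Figure D5:**
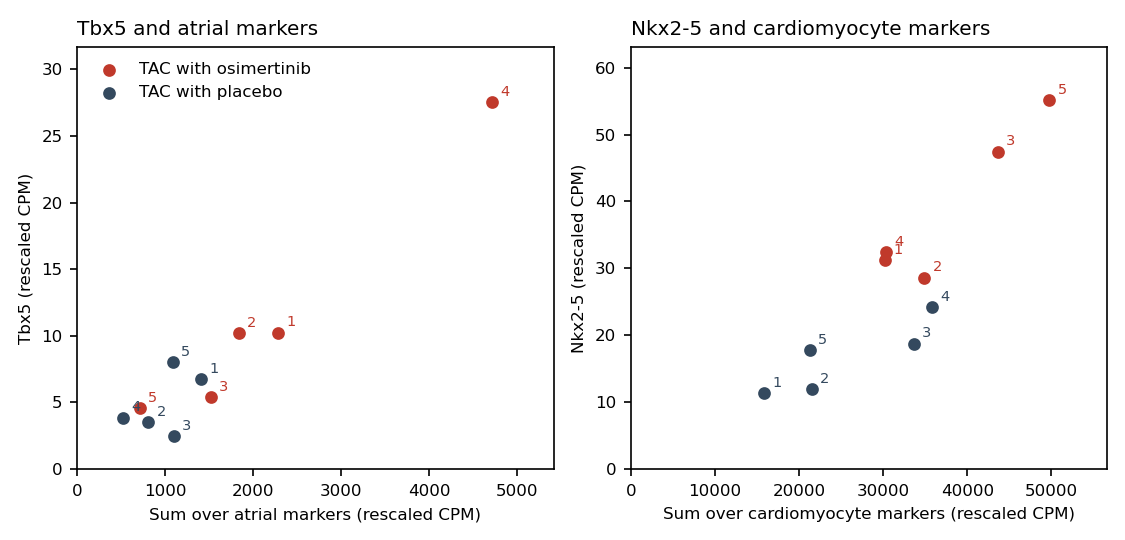
Rescaled CPM of Tbx5 against the sum of the atrial markers (left) and of Nkx2-5 against the sum of the cardiomyocyte markers (right); each point is 1 library, numbered by replicate. Osimertinib library 4 is highest on both axes of the left panel, and osimertinib libraries 5 and 3 are highest on both axes of the right panel.

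Scaling each library to its cardiomyocyte markers moved all genes alike. The median log2 fold change of all genes tested went to -0.67, 35.7% of them were called lower and 0.243% higher in osimertinib, and no member was called. With that shift Nkx2-5 stood at 0.47 ± 0.22 (limma adjusted p = 0.0895), Gata4 at 0.00 ± 0.26 and Srf at -0.02 ± 0.22, and the values of Srf, Gata6, Hand2, Prox1 and Irx4 were below 0. Relative to the all-gene median, Nkx2-5 lay 1.14 higher on this scale, against 1.21 as deposited and 1.18 rescaled. For Gata4 that distance was 0.67 on the marker scale, 0.74 as deposited and 0.72 rescaled. The median distance of the 9 members was 0.65, 0.73 and 0.70 in the same order, and Irx4 stayed within 0.05 of the all-gene median in each. Each of these scalings divides a library by a single factor, which moves all genes alike apart from the pseudocount. The distances were therefore bound to change little and are no test of the members' rise. With the cardiomyocyte marker score as a covariate of the rescaled values, an alternative chosen after the data were seen, the calls were Tbx20 at 1.51 ± 0.20 (adjusted p = 0.0124) and Tbx5 at 2.00 ± 0.39 (adjusted p = 0.0388), where 0.632% of all genes were called higher. Nkx2-5 was then at 0.61 ± 0.19 (adjusted p = 0.140) and Srf at 0.41 ± 0.13 (adjusted p = 0.147). The share of cardiomyocyte RNA and the level of these factors within cardiomyocytes cannot be told apart here.

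Among other cardiac transcription factors, the share called higher was near that of all genes. Of 34 listed, 29 were tested, and 2 rose as deposited while 3 rose and 1 fell after rescaling, where 6.62% and 10.4% of all genes tested were called higher. Their median log2 fold change was 0.28 as deposited and 0.06 rescaled, against 0.27 and 0.01 over all genes. The pair that rose in both were Irx5, an Iroquois factor that in mouse represses the potassium channel gene Kcnd2 (1.16 ± 0.30, limma adjusted p = 0.00998, and 0.93 ± 0.19 rescaled, adjusted p = 0.0141), and Hopx, a homeodomain-only protein that binds Srf. Hopx averaged 46.8 ± 19.6 CPM in osimertinib and 17.7 ± 9.69 CPM in placebo. It changed by 1.47 ± 0.34 (limma adjusted p = 0.00506) as deposited and 1.19 ± 0.36 (adjusted p = 0.0376) after rescaling. Meis1, which in mouse holds back cardiomyocyte division after birth, rose after rescaling (0.65 ± 0.13, adjusted p = 0.0140), and Hey1, a Notch target, fell (-0.47 ± 0.15, adjusted p = 0.0459). Against these shares, 5 of 9 members as deposited and 6 of 9 rescaled were called, but the difference between the lists was not tested.

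Of 18 cofactors, proteins that bind or act with these factors, all were tested. Of them 2 rose as deposited and 2 rose and 1 fell after rescaling, counts near the all-gene shares of 6.62% and 10.4% called higher, and the list's median was 0.30 as deposited and 0.02 rescaled. Ankrd1, a cardiac ankyrin repeat protein of load-stressed muscle, averaged 904 ± 218 CPM in osimertinib and 315 ± 210 CPM in placebo. Its change on the log2 scale was 1.77 ± 0.35 (limma adjusted p = 0.00245) as deposited and 1.49 ± 0.32 (adjusted p = 0.0161) after rescaling. Trim63, a muscle ubiquitin ligase, also rose, at 0.88 ± 0.23 rescaled (adjusted p = 0.0256), and Elk4, a partner of Srf on growth-response genes, fell, at -0.41 ± 0.11 (adjusted p = 0.0306). Myocd, the heart and smooth muscle coactivator of Srf, stood at 0.74 ± 0.27 rescaled and did not pass (adjusted p = 0.0689).

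Textbook target genes of these factors were called mainly as deposited. Of 31 listed, 30 were tested, and 12 rose as deposited, where 6.62% of all genes tested were called higher. After rescaling 3 rose, a share near the 10.4% of all genes. None passed limma's test in the other direction in either scaling. The list's median was 0.87 as deposited and 0.58 rescaled. The 3 called in both were Atp2a2, the sarcoplasmic calcium pump, at 2537 ± 680 CPM in osimertinib and 1050 ± 481 CPM in placebo (1.09 ± 0.28 rescaled, limma adjusted p = 0.0248), cardiac actin Actc1 (1.47 ± 0.41, adjusted p = 0.0300) and the pump's inhibitor Pln (0.98 ± 0.31, adjusted p = 0.0421). Tnnt2, cardiac troponin T, passed as deposited (1.08 ± 0.33, adjusted p = 0.0295) and stood just outside after rescaling (0.80 ± 0.27, adjusted p = 0.0516). Many of these targets are cardiomyocyte markers as well, so the sums given above for those markers move with them.

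The protein-coding genes most like each member within the groups, by Pearson correlation over the 10 libraries after subtracting group means, were named whatever their function. Nkx2-5 was followed most closely by Mlf2 (0.98), Popdc2 (0.97) and Gabarap (0.97), and Srf by Slc35e1 (0.98), Igfals (0.98) and Nutf2 (0.98). Those of Tbx5 were Gabra3 (0.99), Aatk (0.99) and Olfm1 (0.98), and those of Tbx20 Lmo4 (0.97), Axin1 (0.96) and Lix1l (0.95). Gata4 had Fto (0.96), Glrx (0.94) and Cbx8 (0.94), and Gata6 had Tmem100 (0.95), Opn4 (0.93) and Vasn (0.92). Hand2 went with Fbxl17, 1810055G02Rik and Homer1 (0.92 to 0.93), Irx4 with Sh3bp5, Ttc17 and Filip1 (0.91 to 0.94) and Prox1 with Gtf2a1, Crkl and Akap11 (0.92 to 0.94). The highest correlations among all tested protein-coding genes, over 10 libraries, are high by selection.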

How the data were processed

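Poly(A) RNA of 10 left ventricular libraries was sequenced. The deposited unit is CPM, and each column sums to 1000000. The design text names STAR on GRCm38 and RSEM in the nf-core pipeline, with no versions, whereas the submitters' processing notes name cutadapt 1.9, HISAT2 2.0.4, StringTie 1.3.4d, DESeq2 and hg38. The identifiers are mouse (98.8% of 45706 matched GENCODE M21). Groups and replicate numbers came from the sample titles.

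The 12350 genes that reached 1 CPM in 5 or more libraries were tested by limma 3.58.1 in R 4.3.3 with an intensity trend. Values were log2(CPM + 0.5), tests two-sided, and p-values were adjusted by Benjamini-Hochberg over all genes tested. Fold changes on this scale understate those of low genes. The prior had 72.9 degrees of freedom as deposited and 4.45 rescaled, so a gene's deposited error rests mostly on the variance shared over genes. It was infinite in 7 of the 10 deposited fits without 1 library, whose errors rest on the shared variance alone. Reads recovered from the spacing were whole, to 0.01 read, in 90.7% to 93.3% of low values, so no count test was run, and voom on them was an alternative. Ratios had an exact permutation test over 252 assignments. The procedure was tested on simulated data. Same-numbered libraries correlated at -0.34 to 0.46 and were not treated as pairs.

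All members are named. Of every other list up to 4 genes with the lowest rescaled p, and any needed to explain a count of 5 or fewer, are named. The members and lists were chosen with earlier results of these data known. Promoter windows are from RefSeq, and a member without one is named only. Some genes of the lists are not reported here by name. Protein identity between members was not run.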

Additional observations from a re-analysis of the deposited data

Results flagged for a closer look

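In 46 groups of 5 values, 7 had a library whose gap to the nearest other exceeded 0.710 of the group's range. By chance about 1 in 20 groups does so. Osimertinib library 4 gave 4 of them. It held 27.6 rescaled CPM of Tbx5 against 4.59 to 10.3 in the other osimertinib libraries, and 32.7 CPM as deposited against 4.71 to 12.4. The same library held 32.6 rescaled CPM of Tbx20 against 22.2 to 25.1, and 22.9 rescaled CPM of Gata6 against 15.1 to 16.9. Its atrial, fibroblast, endocardial, epicardial, conduction system, macrophage and neuronal marker sums were also the highest of the 10 libraries, and their part in these values was not tested. Placebo library 5 had 14.5 CPM of Srf as deposited against 32.7 to 39.3 in the other placebo libraries, beside its mitochondrial share of 63.4%, and after rescaling it lay within its group at 31.9. The part of that share in the Srf value was not tested. Hand1 in placebo library 1, at 0.0493 CPM and 0.0467 rescaled CPM, is 1 read against 0 in the other 4.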

How the results depend on the processing

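As deposited, 833 genes and 5 members were called. Other scalings called 2574 genes (median ratio), 2654 (quantile), 2386 (TMM) and 2253 (TMM without placebo library 5, chosen after the data were seen), each with 6 members. Array weights gave 2579 genes and 7 members, the atrial covariate 1399 and 5, and voom on estimated reads 4 members. Without a filter 0 genes and 0 members passed limma (3269 of 21622 genes had an unadjusted p under 0.05, smallest adjusted p 0.0707), whereas the rescaled values then gave 1227 genes and 5 members. Scaled to cardiomyocyte markers, which moved the all-gene median to -0.67, 4440 genes and 0 members passed, with Gata6 at -0.23, Hand2 at -0.25, Srf at -0.0194, Prox1 at -0.14 and Irx4 at -0.71, all but Irx4 above that median. Irx4 was -0.0159 under quantile normalization. Rescaled, the atrial covariate gave 4839 genes and 8 members, and the cardiomyocyte covariate 97 genes and 2 members, with Irx4 at -0.0193. Leaving out 1 library gave 307 to 1126 genes and 2 to 6 members as deposited, 521 to 2800 genes and 4 to 7 members rescaled, Irx4 at -0.123 to 0.0919 rescaled and a Tbx20 to Tbx5 ratio difference of -0.0521 to 0.427. The deposited count of members was 2 without osimertinib library 4 and 3 without osimertinib library 2, 3 or 5 or placebo library 1 or 4. The replicate block, which the numbers do not warrant as pairing (correlations from -0.34 to 0.46), gave 1320 genes and 6 members as deposited, Prox1 added, and 2949 genes and 7 members rescaled, Hand2 added. Per kb of the longest transcript, osimertinib and placebo stood at 11.2 and 6.63 for Gata4 and 4.55 and 3.17 for Gata6, and Tbx20 in osimertinib at 2.80. These per-kb values differ from those by all exons only through the length divided by, which placed Tbx20 in placebo at rank 7 instead of 9. The cause of the other shifts was not tested. Tbx20 kept its direction under all alternatives run and, rescaled, its call. Depth limits Hand1, whose values are at or under 3 reads.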

Other observations

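Of the other cardiac transcription factors listed, Gata5, Isl1, Irx6 and Mef2b were among those that did not pass the filter on low values. Their highest library values were 3.09 CPM for Gata5, a GATA factor of the endocardium, 0.315 CPM for Mef2b, 0.188 CPM for Irx6 and 0.0584 CPM for Isl1, a marker of second heart field progenitors and sinus node cells.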
